A study of Mus musculus with 3 samples.

Results

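The 10 genes described here encode the core of the machinery that decides between survival, apoptosis and necroptosis after a death receptor or Toll-like receptor has fired. They are the RIP kinases Ripk1, Ripk2 and Ripk3, the necroptosis effector Mlkl, the caspase-8 group Casp8, Cflar and Fadd, and the inhibitor of apoptosis (IAP) genes Birc2, Birc3 and Xiap. They were picked by gene symbol, all 10 symbols matched, and they stand among 55536 annotated genes, 22028 of which are protein-coding. Their levels were measured in the chromatin fraction of mouse bone-marrow-derived macrophages, which are macrophages grown from marrow progenitors of strain C57BL/6J. All 3 libraries belong to a single group. Per the labels, the cells were first exposed to Lipid A at 100 ng/ml for 12 hours. They then went 12 hours without it after a wash, and met the same dose of 100 ng/ml for a further 50 minutes before the RNA was taken. Lipid A is the part of bacterial lipopolysaccharide that Toll-like receptor 4 senses. Every library shares both exposures, and cells without them were not analysed here, so each value below is a level and not a response. Age and sex were not collected, per the labels. RNA was depleted of ribosomal RNA, starting from 1 µg in replicate 1, 250 ng in replicate 2 and 500 ng in replicate 3. The labels name the same donor for all libraries, and no source says whether separate animals or cultures were used. SDs therefore measure only how these samples differ, which may be technical. The p-values ask only whether a difference within a pair of genes was consistent across these samples.

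RIPK1 is recruited to activated receptors, where cIAP1 and cIAP2 (products of Birc2 and Birc3) mark it with ubiquitin and let it signal towards NF-kB. When that brake fails, RIPK1 can join FADD and caspase-8, which starts apoptosis, and where caspase-8 is blocked it can engage RIPK3, which phosphorylates MLKL to rupture the plasma membrane. The protein c-FLIP, made from Cflar, resembles caspase-8 but lacks its catalytic activity, and sets how active caspase-8 becomes. RIPK2 serves a separate route, downstream of the intracellular peptidoglycan sensors NOD1 and NOD2, and XIAP both ubiquitinates RIPK2 and blocks caspases. Chromatin-fraction RNA holds transcripts still being made or retained at the gene, so introns are present along with exons.

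The forms of these genes differ in short stretches of coding sequence, which are shown because the split between forms below rests on them. The end of the short Cflar coding sequence (Cflar-204, 215 residues, chr1:58732297-58732362, mm10, plus strand) is set against the same place in the long coding sequence (Cflar-205, 481 residues, chr1:58732297-58735693, spliced), both read 5′ to 3′ from the GENCODE M21 transcripts. The forms share 612 coding bases, the last 30 of which are in lower case, and capitals mark the first 36 bases after they part.
Cflar-204: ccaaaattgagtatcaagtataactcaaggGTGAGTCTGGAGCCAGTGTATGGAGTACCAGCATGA
Cflar-205: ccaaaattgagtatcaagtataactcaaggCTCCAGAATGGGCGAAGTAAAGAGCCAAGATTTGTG
All 36 capital bases of the short form lie inside an intron of Cflar-205. The short coding sequence thus reads on past the end of an exon of the long form and stops soon after, and reads from unspliced long RNA and from short RNA cannot be told apart there.

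Caspase-8 has annotated forms of 480 and 500 residues, which differ at the start of the coding sequence. The start of the longer form (Casp8-203, chr1:58804083-58823962, mm10, plus strand, spliced) is shown with the 60 bases that only this form codes in capitals, followed by the first 20 bases shared with the 480-residue form in lower case.
Casp8-203: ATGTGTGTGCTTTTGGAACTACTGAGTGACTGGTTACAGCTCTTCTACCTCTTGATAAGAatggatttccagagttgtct
The shared stretch opens with the start codon of the 480-residue form.

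Birc3 and Birc2 are neighbours on chromosome 9 that encode closely related ubiquitin ligases, and their promoters are shown because their levels lay far apart. RefSeq (GRCm38.p6) supplied 13 promoter entries for 9 of the 10 genes, each reaching from 250 bases before to 50 bases after a transcription start. The promoters nearest to the GENCODE gene starts are chr9:7873121-7873420 for Birc3 and chr9:7837008-7837307 for Birc2, both printed along the minus strand with every CG dinucleotide in capitals.
Birc3: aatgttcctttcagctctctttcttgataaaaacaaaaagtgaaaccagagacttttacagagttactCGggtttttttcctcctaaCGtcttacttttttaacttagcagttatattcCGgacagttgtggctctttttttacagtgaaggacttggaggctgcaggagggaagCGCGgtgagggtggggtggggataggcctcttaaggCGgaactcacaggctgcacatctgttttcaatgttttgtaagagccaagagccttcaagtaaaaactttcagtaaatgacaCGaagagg
Birc2: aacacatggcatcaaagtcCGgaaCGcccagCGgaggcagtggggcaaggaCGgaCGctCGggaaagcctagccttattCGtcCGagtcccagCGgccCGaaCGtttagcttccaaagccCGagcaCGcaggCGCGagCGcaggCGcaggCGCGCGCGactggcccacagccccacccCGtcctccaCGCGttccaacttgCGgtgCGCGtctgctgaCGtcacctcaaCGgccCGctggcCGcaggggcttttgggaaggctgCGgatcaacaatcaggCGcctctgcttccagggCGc
The Birc3 stretch holds 7 CG dinucleotides and is 43.0% G or C. The Birc2 stretch holds 34 and is 67.0% G or C. A CG reads the same on both strands, 94.6% of all 32851 promoters hold at least 1, and the median promoter holds 7. Fewer CG dinucleotides than in the Birc2 stretch were counted in 92.3% of promoters, and fewer than in the Birc3 stretch in 47.9%. These counts describe the letters of the windows only and were made after the levels were known.

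Levels are given in TPM, the relative abundance of a transcript after correction for its length, summed over the transcripts of a gene, and as mean ± SD over n = 3 libraries. Of the 10 genes, 9 were detected, meaning that no library fell under 1 TPM, against 39.2% of protein-coding genes. The median of the 10 means was 34.7 TPM, against 9.95 TPM over the 8638 detected protein-coding genes. Cflar and Birc3 stood at 480.2 and 352.8 TPM, 6 genes lay between 20.1 and 52.1 TPM, Ripk3 was at a few TPM and Fadd was at the detection threshold. The libraries held between 13897176 and 19597343 expected counts, of which the 10 genes together took between 0.224% and 0.289%. Protein-coding genes held between 27.6% and 29.6% of TPM, but between 58.82% and 67.15% of expected counts. Most TPM thus went to other RNA classes while most counted fragments did not, and TPM gives much weight to short transcripts. Macrophage markers were detected 8 of 8, with a summed level of 888 to 1207 TPM. Of the markers of other cell types, only the endothelial gene Kdr was detected, at 4.40 TPM. Neutrophil markers summed to at most 0.43 TPM, T cell markers to 0.36, B cell markers to 0.16, dendritic cell markers to 1.65, erythroid markers to 0.22 and stromal and endothelial markers to 9.10. Elane, Cd3e, Cd3g, Pax5, Hba-a1 and Klf1 were listed at 0 in every library.

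**Figure D1:**
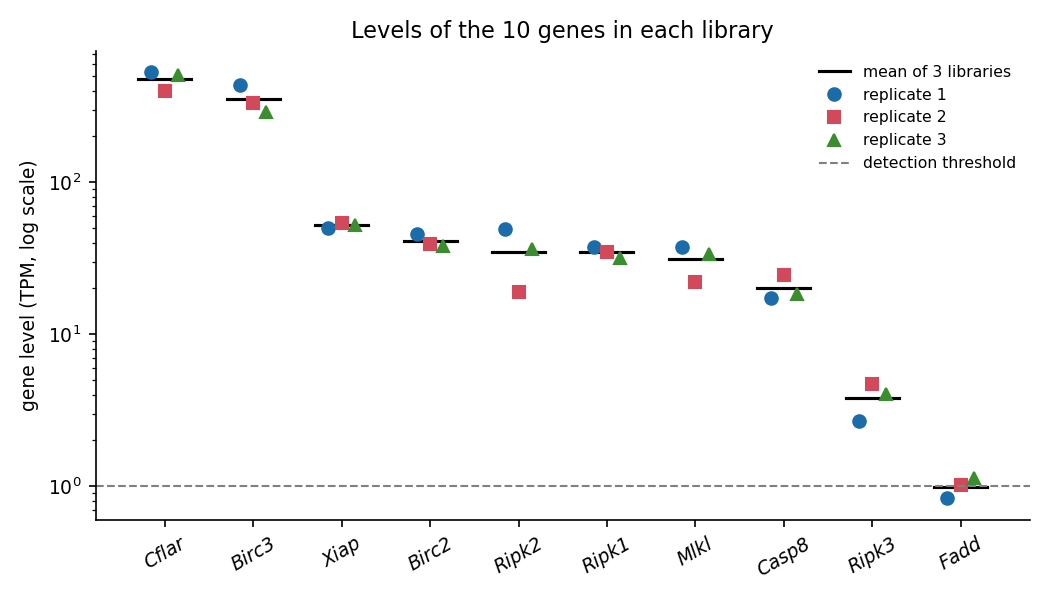
Level of each of the 10 genes (TPM, log axis) in replicates 1, 2 and 3, ordered by mean; the black bar is the mean of 3 libraries and the dashed line the detection threshold of 1 TPM. Cflar and Birc3 lie highest, Ripk3 and Fadd lie lowest, and the points of Ripk2 are the most widely spread.

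In the caspase-8 group, RNA of the regulator stood far above RNA of the enzyme it regulates. RNA of the adaptor was at the detection threshold. Protein was not measured, so these levels do not give amounts of protein. Cflar (ENSMUSG00000026031.15, chromosome 1, 58711508 to 58758884, plus strand, mm10) measured 530.6, 399.7 and 510.2 TPM in replicates 1, 2 and 3, or 480.2 ± 70.5 TPM. By mean level it ranked 52 among the 22028 protein-coding genes. Replicate 2 was the lowest of the 3 libraries and the other two lay close together.

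Casp8, the initiator protease itself (ENSMUSG00000026029.14, chromosome 1, 58795374 to 58847503, plus strand), measured 17.2, 24.7 and 18.3 TPM, or 20.1 ± 4.01 TPM. Here replicate 2 was the highest library, the reverse of Cflar. Casp8 lies 36.5 kb downstream of Cflar, with the pseudogene Gm3841 between them, and Cflar exceeded it by a ratio of 30.8, 16.2 and 27.8 in replicates 1, 2 and 3. On the log2(TPM + 1) scale the difference was 4.52 ± 0.48, of the same sign in 3 of 3 libraries. An exact two-sided sign-flip test over 3 libraries cannot give a p under 0.25, which is what it gave here, and 0.292 after Benjamini-Hochberg adjustment over the 7 pairs of genes compared. With TMM-scaled CPM, which is not corrected for length, the difference was 5.59. Over protein-coding transcripts only it was 3.95, with Cflar at 323.6 TPM and Casp8 still at 20.1 TPM. The gene Gm37760, an unclassified transcript that overlaps Casp8 on the same strand by 3841 bases, was at 3.36, 10.3 and 4.64 TPM, and was also highest in replicate 2; its part in the Casp8 values was not tested.

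Fadd, the adaptor that links death receptors to caspase-8 (ENSMUSG00000031077.7, chromosome 7, 144577318 to 144582463, minus strand), measured 0.83, 1.01 and 1.13 TPM. Its mean of 0.99 ± 0.15 TPM rested on 42, 66.5 and 68.3 expected counts. It missed detection through replicate 1 alone, and the deposited intervals of all 3 libraries contain 1 TPM, so they do not place Fadd on either side of the threshold. The antisense gene Faddos overlaps it by 4195 bases and was at 0.58, 1.36 and 0.87 TPM, and strand use in the counting was not given in the sources used here. Casp8 was above Fadd by 3.39 ± 0.25 on the log2(TPM + 1) scale in 3 of 3 libraries (exact sign-flip p = 0.25, the smallest possible). With 0.1 added to TPM in place of 1 the difference was 4.20, so its size depends on the added value at this low level of Fadd.

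Among the RIP kinases, Ripk1 and Ripk2 had nearly the same mean, but they did not behave alike across libraries. Ripk1, the receptor-proximal kinase (ENSMUSG00000021408.15, chromosome 13, 34002363 to 34037147, plus strand), measured 37.3, 34.5 and 31.9 TPM, or 34.6 ± 2.73 TPM. Ripk2, the NOD1 and NOD2 kinase (ENSMUSG00000041135.15, chromosome 4, 16122733 to 16163647, minus strand), measured 49.2, 18.9 and 36.5 TPM, or 34.9 ± 15.3 TPM. Ripk1 varied little, while Ripk2 in replicate 2 was far below the other libraries.

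The highest Ripk2 library was 2.61 times the lowest, and Ripk2 was the only 1 of the 9 detected members to exceed 2-fold, against 21.3% of detected protein-coding genes. Without replicate 1, or without replicate 2, no member exceeded 2-fold. The difference of Ripk2 from Ripk1 was -0.09 ± 0.66 on the log2(TPM + 1) scale, with Ripk2 higher in replicates 1 and 3 and lower in replicate 2 (exact sign-flip p = 1), and without replicate 2 it was 0.29. The typical detected protein-coding gene in replicate 2 was at 1.11 times its own mean, while Ripk2 was at 0.54 times its mean. Mlkl, at 0.71 times, and Cflar, at 0.83 times, were also lowest in replicate 2, the library with the smallest starting amount; the part of that amount in these values was not tested.

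Ripk3, the necroptosis kinase (ENSMUSG00000022221.14, chromosome 14, 55784995 to 55788865, minus strand), measured 2.66, 4.69 and 4.04 TPM, or 3.80 ± 1.04 TPM. These values come from 40, 114 and 91 expected counts, and the deposited intervals, 2.67 to 6.86 TPM in replicate 1, 4.57 to 9.33 in replicate 2 and 4.25 to 9.14 in replicate 3, were wide. The authors' posterior mean of Ripk3 averaged 6.05 TPM, or 1.59 times its mean TPM, and the TPM lay inside the deposited interval in only 1 of 3 libraries. The intervals of the 3 libraries overlapped each other, and a difference between libraries was not detectable at this depth.

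Mlkl, the membrane-rupturing substrate of RIPK3 (ENSMUSG00000012519.14, chromosome 8, 111311797 to 111338177, minus strand), measured 37.3, 22.0 and 33.9 TPM, or 31.1 ± 8.04 TPM. Replicate 2 was again the lowest. Mlkl was thus at a level near that of Ripk1 and well above its own kinase. The difference from Ripk3 was 2.73 ± 0.69 for Mlkl and 2.91 ± 0.41 for Ripk1 on the log2(TPM + 1) scale, positive in 3 of 3 libraries for both (exact sign-flip p = 0.25 each, adjusted 0.292 over the 7 pairs). For Mlkl the difference was 3.45 in the read-based tables and 2.10 with posterior means. For Ripk1 it was 2.27 with posterior means, 2.22 over protein-coding transcripts and 3.83 with TMM-scaled CPM.

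**Figure D2:**
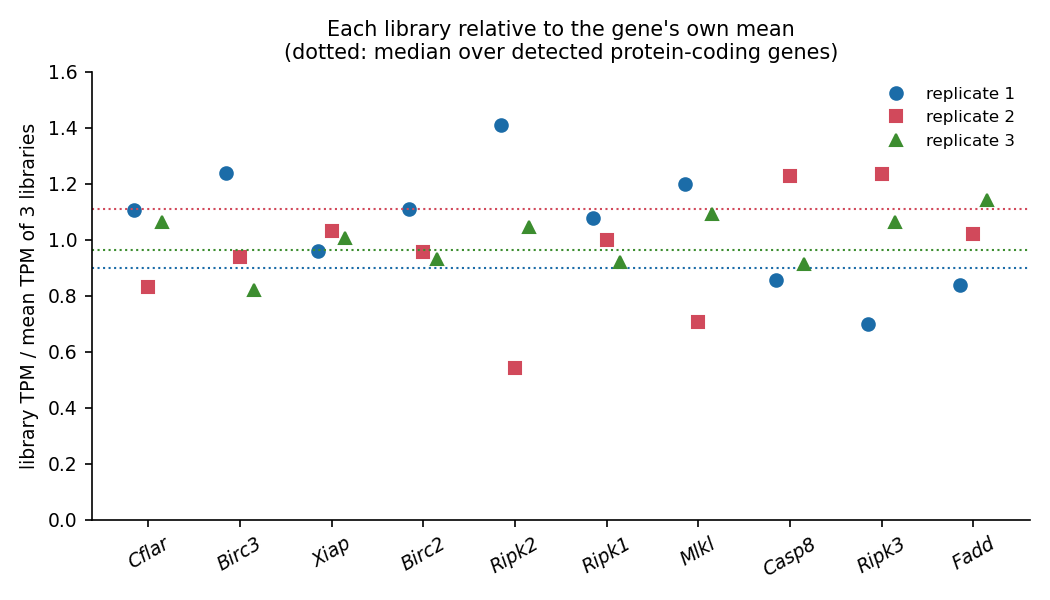
TPM of each library divided by the mean TPM of the 3 libraries, for each of the 10 genes; dotted lines are the medians over detected protein-coding genes in replicate 1 (0.90), 2 (1.11) and 3 (0.96). Ripk2 and Mlkl fall furthest below in replicate 2, while Casp8 and Ripk3 are highest there.

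Of the IAP genes, Birc3 was by far the highest in every library. Birc3, encoding cIAP2 (ENSMUSG00000032000.17, chromosome 9, 7848699 to 7873186, minus strand), measured 436.8, 331.7 and 290.0 TPM, or 352.8 ± 75.7 TPM, and ranked 94 among protein-coding genes. Birc2, encoding cIAP1 (ENSMUSG00000057367.12, chromosome 9, 7818227 to 7837064, minus strand), measured 45.6, 39.4 and 38.2 TPM, or 41.1 ± 3.99 TPM. For both genes replicate 1 was the highest, and no value of Birc2 came near any of Birc3.

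The genes are 11.6 kb apart with no annotated gene between them, and Birc3 was 9.58, 8.43 and 7.59 times Birc2 in replicates 1, 2 and 3. On the log2(TPM + 1) scale the difference was 3.06 ± 0.17 (exact sign-flip p = 0.25, the smallest possible). Counted only over protein-coding transcripts, Birc3 fell to 154.5 ± 17.8 TPM and Birc2 to 29.6 TPM, and the log2 difference was 2.34. It was 3.71 in the read-based tables and 2.08 with TMM-scaled CPM, which has no correction for length. The protein-coding sum of Birc3 included 61.5 TPM of Birc3-202, 54.1% of whose bases lie in introns of the full-length Birc3-201.

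Xiap, the direct caspase inhibitor (ENSMUSG00000025860.15, chromosome X, 42059679 to 42109656, plus strand), measured 50.0, 53.8 and 52.5 TPM, or 52.1 ± 1.89 TPM. Its coefficient of variation of 3.63% was the smallest of the 10 genes. Xiap was above Birc2 in 3 of 3 libraries by 0.34 ± 0.18 on the log2(TPM + 1) scale (exact sign-flip p = 0.25), but over protein-coding transcripts alone Birc2 was the higher by 0.12. With TMM-scaled CPM, Birc2 minus Xiap was -1.06.

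In descending order of mean the genes were Cflar, Birc3, Xiap, Birc2, Ripk2, Ripk1, Mlkl, Casp8, Ripk3 and Fadd. Of the 9 steps between neighbours in this order, 4 separated genes whose library values did not overlap. These were Birc3 over Xiap (6.77-fold between means), Xiap over Birc2 (1.27-fold), Casp8 over Ripk3 (5.29-fold) and Ripk3 over Fadd (3.84-fold). In the other 5 steps the library values overlapped. Cflar was nonetheless above Birc3 within each of the 3 libraries, by 0.45 ± 0.31 on the log2(TPM + 1) scale. In the run Birc2, Ripk2, Ripk1, Mlkl and Casp8 the sign of each step differed between libraries, so these genes could not be ordered step by step. Genes further apart in the run could be separated in part. Every library value of Birc2 lay above all those of Ripk1, Mlkl and Casp8, and every value of Ripk1 above all those of Casp8. Deposited intervals of single libraries did not overlap for at least 1 pair of libraries in 6 of the 9 detected members, against 54.5% of detected protein-coding genes. For Ripk2 and Birc3 all 3 pairs of libraries were apart, for Mlkl, Casp8 and Cflar 2 pairs and for Birc2 1 pair, whereas Ripk1, Ripk3, Fadd and Xiap had none. The TPM of Cflar and of Birc3 lay above its own deposited interval in all 3 libraries, so these intervals do not bracket the TPM printed here.

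Much of the TPM of several genes came from transcripts that are not annotated as protein-coding. For Ripk1 and Birc3 this was over 50%, at 51.6% and 56.2% of the mean TPM, so 2 of the 9 detected members passed that mark, against 42.9% of detected protein-coding genes. Xiap followed at 48.1%. In single libraries the share was 57.6%, 52.3% and 43.6% for Ripk1, and 69.3%, 51.0% and 42.4% for Birc3. Both were under 50% in replicate 3, and without replicate 1 Xiap passed 50% while neither of these genes did.

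**Figure D3:**
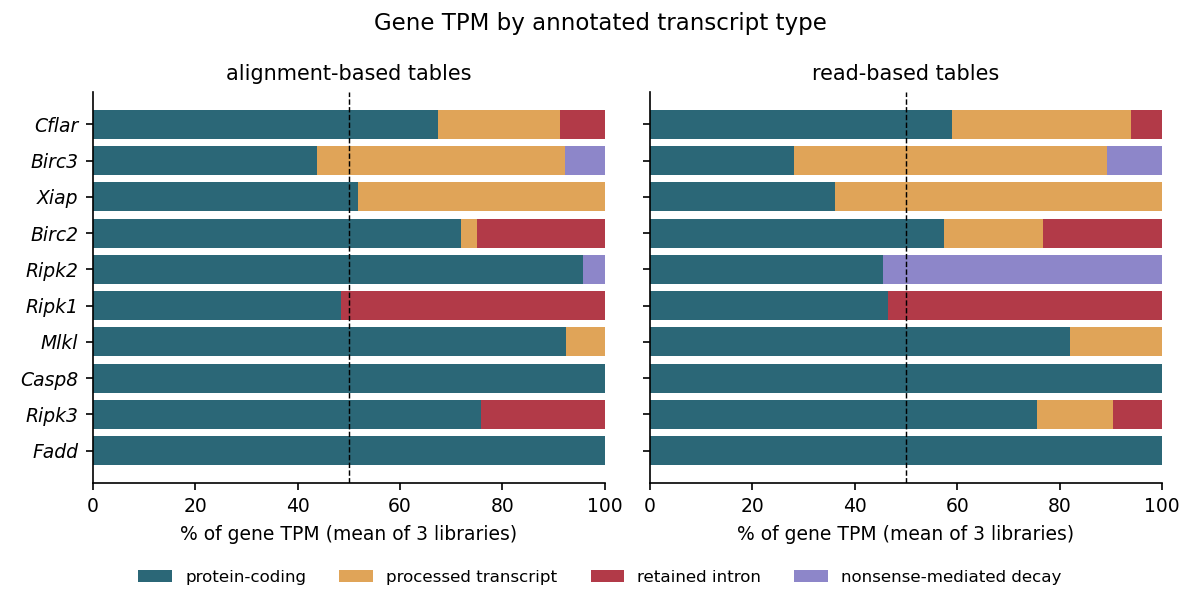
Share of each gene's mean TPM (%, 3 libraries) by the type GENCODE gives the transcripts, in the alignment-based and the read-based tables; the dashed line marks 50%. Ripk1 and Birc3 pass the line outside protein-coding transcripts on the left, and Ripk2 and Xiap join them on the right.

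A large share of Birc3 TPM was assigned to short annotated transcripts within the first 6.99 kb of the gene, although protein-coding transcripts alone still came to 154.5 TPM. Of that coding sum, 90.8 TPM was Birc3-201 and 61.5 TPM was Birc3-202, which has 54.1% of its bases in introns of Birc3-201. The 360-base processed transcript Birc3-206 was at 152.4, 89.1 and 55.4 TPM in replicates 1, 2 and 3. The 355-base Birc3-205 was at 93.1, 68.6 and 53.3 TPM. Both were highest in replicate 1 and lowest in replicate 3. Both lie mostly in the first intron of Birc3-201, with 90.3% and 78.9% of their bases within introns of that transcript. Whether their reads came from unspliced Birc3 RNA was not tested.

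Together they held 48.4% of the gene's TPM but only 5.80% of its expected counts. Their effective lengths, the number of positions a fragment could start from, were between 115 and 193 bases, against at least 2410 for Birc3-201. The full-length form Birc3-201 (602 residues) took 52.5% of the counts. It was at 76.1, 85.6 and 110.8 TPM, which is lowest in replicate 1, opposite to the gene as a whole. The 376-residue form Birc3-202, which ends inside an intron of the long form, was at 55.8, 74.5 and 54.2 TPM. Birc3-207, annotated as a target of nonsense-mediated decay, was at 57.2, 11.5 and 14.2 TPM. Averaged over libraries, the full-length form made up 27.2% ± 10.5 of Birc3 TPM.

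Cflar also had a large intronic part, but its main transcript was the long coding form. Cflar-205 measured 230.2, 172.4 and 249.4 TPM and held 76.3% of the expected counts. The short form Cflar-204 measured 104.2, 98.1 and 110.4 TPM. Replicate 2 was lowest for both, and the short form varied less.

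All 3 long-form transcripts together were 2.25, 1.77 and 2.27 times the short form, or 2.09 ± 0.28. The last exon of Cflar-204 is 975 bases long, and 901 of them lie outside the exons of Cflar-205. Its first exon lies within the first intron of Cflar-205. Both exons counted, 63.0% of the short transcript lies in introns of the long one. The 36 capital bases shown for Cflar-204 are the start of those 901, all of which the short form shares with unspliced long RNA. Another 4 transcripts, Cflar-213, Cflar-207, Cflar-208 and Cflar-210, which were singled out after their values were seen, lie at least 84.4% within introns of Cflar-205, in the first 11.6 kb of the gene. They summed to 125.6, 97.9 and 112.2 TPM, or 23.3% of the gene.

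**Figure D4:**
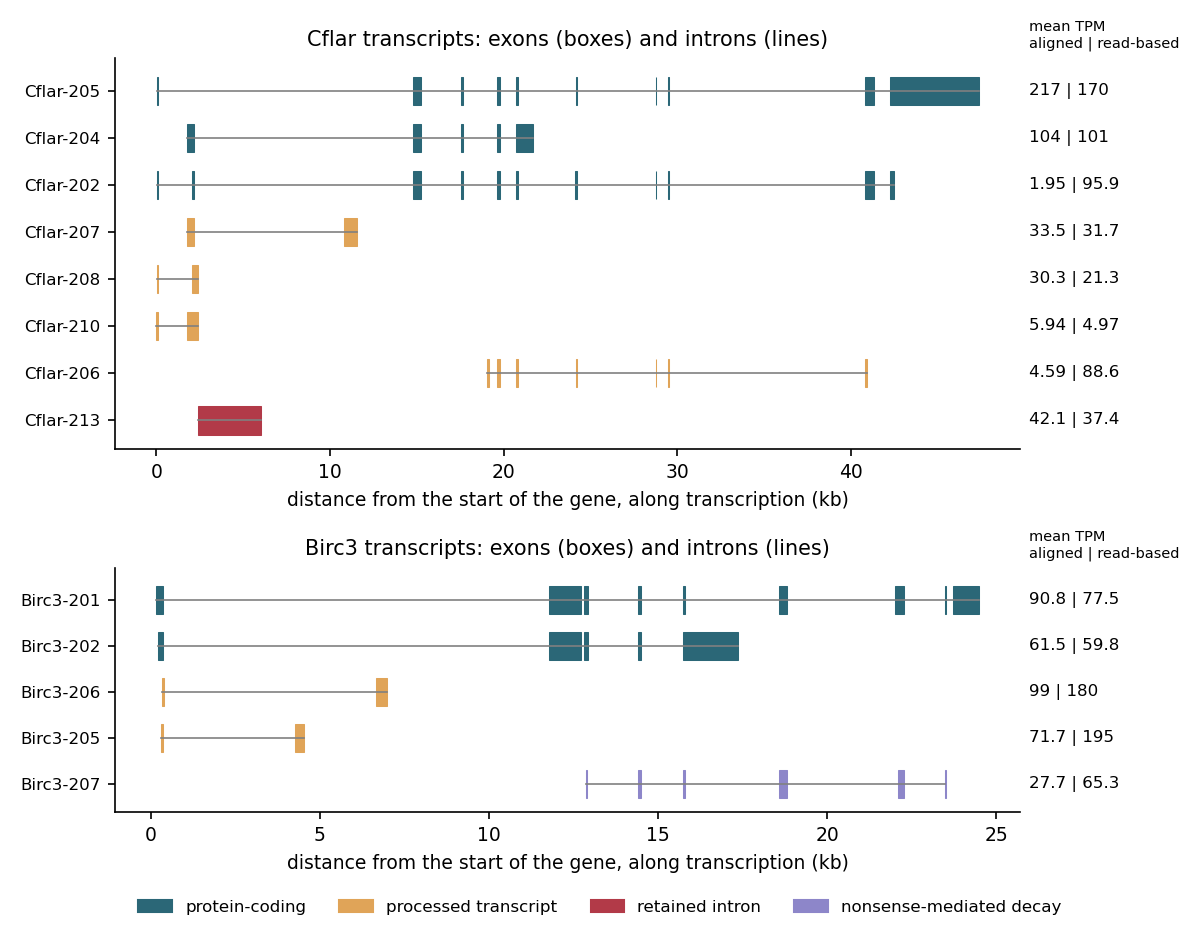
Exons (boxes) and introns (lines) of Cflar and Birc3 transcripts by distance from the gene start in kb along transcription, coloured by transcript type, with mean TPM in the alignment-based and read-based tables at the right. Cflar-204 ends in an extended exon where Cflar-205 goes on, and Birc3-205 and Birc3-206 end within the long first intron of Birc3-201.

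Xiap showed a similar division in a different place. The processed transcript Xiap-206 was at 20.5, 26.6 and 26.6 TPM, 47.2% of the gene's TPM and 18.8% of its counts. It covers the first 13.0 kb of the gene and shares no base with Xiap-201, which begins 34.0 kb from the gene start and encodes the 496-residue protein. Xiap-204, a further transcript for this protein, held 14.3% of TPM, and Xiap-201 held 31.4%. All 4 transcripts that encode it summed to 26.5, 25.6 and 25.8 TPM, so the coding part was as even across libraries as the gene.

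In Ripk1, transcripts encoding the 656-residue kinase held 15.8, 16.5 and 17.9 TPM, and the main one, Ripk1-201, took 41.5% of the gene. The retained-intron transcripts Ripk1-202 and Ripk1-205 summed to 21.5, 18.1 and 13.9 TPM. The coding part was lowest and the retained-intron part highest in replicate 1. Of expected counts, the retained-intron pair held 28.0%. Birc2 had 25.0% of its TPM in the retained-intron transcript Birc2-203, which covers the first 1.32 kb of the gene, and the 612-residue ligase took 71.1% ± 0.25 per library. Birc2-204 held 40.7% and Birc2-202 held 30.4%, and both encode this protein.

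Ripk2, Mlkl and Casp8 were mostly coding in the alignment-based tables, at 95.7% of TPM for the 539-residue transcript Ripk2-201 and 64.3% for the 464-residue Mlkl-202. The drop of Ripk2 in replicate 2 was seen in Ripk2-201 itself, which measured 47.9, 18.3 and 33.9 TPM. Mlkl-202 measured 24.4, 17.1 and 18.4 TPM. The 593-base Mlkl-204, whose annotated coding sequence is incomplete, was at 8.05, 1.78 and 13.6 TPM. Across libraries the short transcript thus varied more than the full one. It rested on only 46.4, 10.9 and 78.0 expected counts, against at least 528.9 for Mlkl-202, so its spread is poorly determined.

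The 480-residue form of caspase-8 measured 9.37, 21.2 and 16.8 TPM, and the 500-residue form 7.87, 3.48 and 1.58 TPM. The shorter form came from Casp8-202, at 48.9% of TPM, and Casp8-201, at 29.7%. The 500-residue form held 45.7% of Casp8 TPM in replicate 1, 14.1% in replicate 2 and 8.62% in replicate 3. Replicate 1 therefore stood apart in the split, although its gene total was close to that of replicate 3. In the read-based tables the same form held 59.8%, 41.4% and 33.1%, so the order of the libraries was the same and the level of the share was not.

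Ripk3 TPM was divided among Ripk3-201, the full 486-residue kinase, at 46.5%, Ripk3-202 at 26.2% and Ripk3-206 at 24.1%. At 40 to 114 counts in the whole gene this division is poorly determined. Fadd has a single annotated transcript, Fadd-201.

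The read-based tables gave a higher mean for 9 of the 10 genes, and Ripk3 was the exception at 3.39 TPM. The median ratio of read-based to alignment-based means over detected protein-coding genes was 1.30. It was over 1.5 for 2 of the 9 detected members, Birc3 (612.7 TPM, 1.74 times) and Mlkl (47.9 TPM, 1.54 times), against 35.6% of detected protein-coding genes. Cflar came to 622.6 TPM in these tables, so it and Birc3 were closer there.

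The division into transcripts moved more than the gene totals. Ripk2-202, a nonsense-mediated decay transcript, went from 4.33% of Ripk2 TPM to 54.5%, and Ripk2-201 from 95.7% to 45.6%. Cflar-202, which encodes a 484-residue long form, went from 0.41% to 15.4%, and Cflar-206 from 0.96% to 14.2%. Mlkl-201 went from 2.89% to 25.9%, Mlkl-203 from 7.66% to 17.9% and Xiap-208 from 0 to 18.9%. Casp8-204, a transcript of the 500-residue form, went from 2.86% to 26.1%. Birc2-205 went from 3.04% to 19.3%, Ripk1-204 from 0.029% to 16.7%, Ripk3-204 from 0 to 14.95% and Xiap-209 from 0.95% to 11.5%. The ratio of long to short Cflar stayed above 1 in every library of both tables, at 3.54, 2.04 and 2.39 in the read-based tables. The miRNA gene Gm22690 inside Ripk2 was at 0 in the alignment-based tables and at 331 TPM in the read-based ones, and its part in the Ripk2 split was not tested.

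The other genes that overlap a member were below it in mean TPM, Ripk1 being at 34.6 and Mlkl at 31.1 TPM. Their part in the values of Ripk1 and Mlkl was not tested. Serpinb6a, which overlaps the start of Ripk1 on the opposite strand by 432 bases, was at 14.2 TPM. The pseudogenes Gm17083 and Gm17084 inside Ripk1 were at 11.3 and 2.62 TPM, and Gm45712 inside Mlkl was at 8.91 TPM. How shared reads were divided was not given in the sources used here.

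Around the 10 genes, 47 other genes of the same pathway were followed in 5 lists, and 42 were detected. Their median was 24.3 TPM. The list of receptors, intracellular sensors and adaptors that act upstream of RIP kinases or FADD was detected 10 of 11, with a median of 18.7 TPM. Tnfrsf1b, encoding TNF receptor 2, was highest at 186.3 ± 30.7 TPM, and Tnfrsf10b, the TRAIL receptor, was lowest at 0.28 TPM. By read-based values Tnfrsf10b was at 7.07 TPM, and Tradd was lowest at 6.41 TPM. The sensors upstream of Ripk2 were above it, with Nod1 at 83.3 ± 24.2 TPM and Nod2 at 73.1 ± 2.67 TPM. Nod1 and Nod2 did not share the low value of Ripk2 in replicate 2, where they measured 82.5 and 74.3 TPM.

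Genes that write or remove ubiquitin on RIPK1 were detected 9 of 9, with a median of 34.1 TPM. Tnfaip3, encoding the ubiquitin editor A20, was highest at 592 ± 165 TPM. Spata2, which tethers the deubiquitinase CYLD, was lowest at 10.7 TPM. By read-based values Spata2 was at 24.8 TPM, and Cyld was lowest at 18.3 TPM. Kinases upstream of RIPK1 phosphorylation, listed together with the adaptor and regulatory subunits of their complexes, were detected 9 of 10, with a median of 65.0 TPM. They ranged from Tab3, an adaptor of the kinase TAK1, at 2.79 TPM to Ikbke, encoding IKK epsilon, at 1300.5 ± 211.2 TPM. Executioners downstream of caspase-8 were detected 7 of 8 with a median of 5.48 TPM. Gsdmd, the pyroptosis pore protein, was highest at 161.7 ± 27.4 TPM, and Casp6 was lowest at 1.17 TPM. By read-based values Apaf1 was highest at 181.5 TPM, and Gsdmd was at 164.2 TPM. The other IAP genes and antagonists were detected 7 of 9 with a median of 24.3 TPM, from Naip1 at 1.22 to the giant IAP gene Birc6 at 135.8 ± 11.8 TPM. By read-based values Xaf1 was highest at 233.5 TPM, and Birc6 was at 152.4 TPM.

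**Figure D5:**
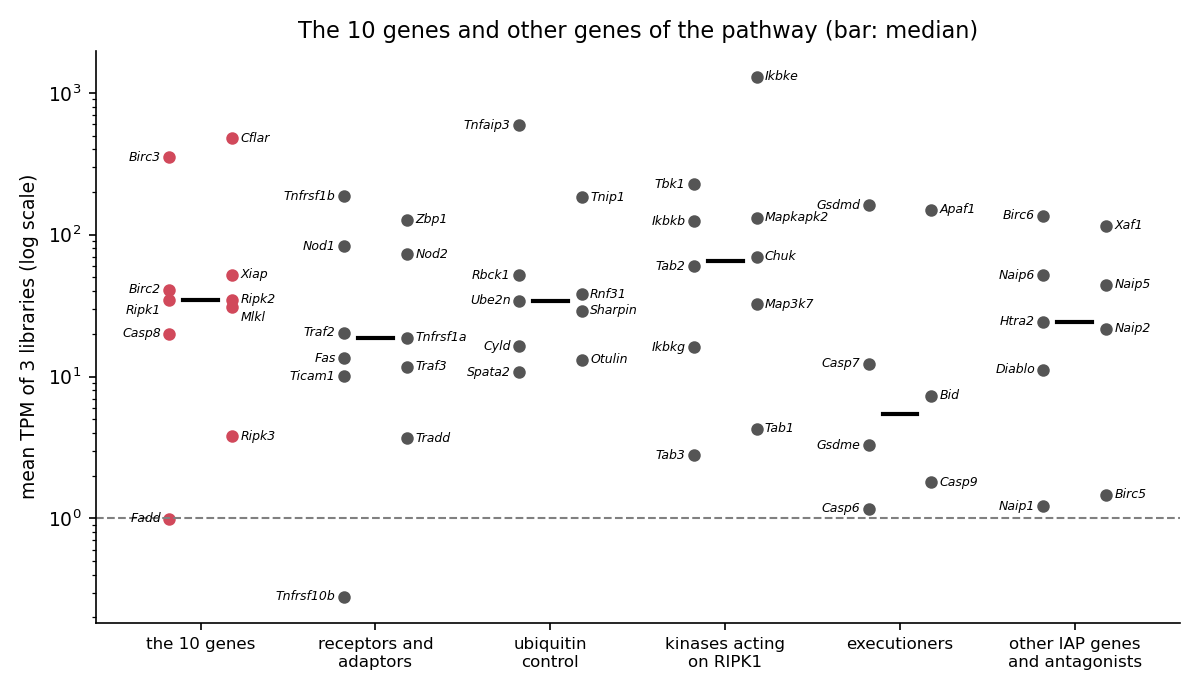
Mean TPM of 3 libraries (log axis) of the 10 genes (red) and of 46 of the 47 other genes of the pathway in 5 lists (grey); black bars are the medians of the whole lists and the dashed line is 1 TPM. By gene TPM, Ikbke and Tnfaip3 are the only pathway genes above Cflar, and the executioner list has the lowest median. Transcripts not annotated as protein-coding held 66.0% of Ikbke TPM, 63.6% of Tnfaip3 TPM and 32.6% of Cflar TPM.

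For each of the 10 genes, the pathway gene with the closest values was found by the root mean square difference of log2(TPM + 1) over the 3 libraries. The closest match was Naip6 for Xiap (0.023), followed by Traf2 for Casp8 (0.025). Traf2, the adaptor that carries cIAP1 and cIAP2 to TNF receptors, measured 17.6, 25.2 and 18.4 TPM and was highest in replicate 2, as Casp8 was. Naip6 belongs to a family of near-identical copies, so its own value is uncertain. Tnfaip3 was nearest to Cflar (0.32), at 723.5, 407.3 and 645.5 TPM, and was likewise lowest in replicate 2. Birc2 was nearest to Rnf31, the catalytic subunit of the linear ubiquitin ligase (0.14). Ripk3 was nearest to Tradd, a TNF receptor adaptor (0.14). Ube2n, a ubiquitin-conjugating enzyme, was nearest to Ripk1 (0.14), Mlkl (0.25) and Ripk2 (0.41). Fadd was nearest to Naip1 (0.25), and Birc3 to the kinase gene Tbk1 at 0.63, the poorest match of the 10.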

How the data were processed

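Ribosomal-RNA-depleted total RNA of the chromatin fraction was sequenced in 3 libraries of 1 group. Per the file headers and accompanying notes, the build was mm10 with GENCODE M21. The alignment-based tables derive from transcriptome alignments and the read-based tables from an index and the reads themselves. The programs were not given in the sources used here. Deposited expected counts are estimated fragments per gene that can be fractional. The deposited TPM values sum to a fixed total per library and rest on effective length, so few counts on a short transcript give a high TPM. The authors also deposited, per gene, a posterior mean TPM and interval bounds, read here as a signal scale of a credible level that was not given in the sources used here.

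Replicates 1, 2 and 3 held 13897176, 19597343 and 19348626 expected counts, and 20743071, 34961536 and 32857771 estimated counts from the reads directly. Intervals cover 1 library's estimation error only. Chi-square per degree of freedom between libraries, over genes with at least 10 counts, was 41.6 to 103, so no pair of libraries agreed within counting noise.

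Gene TPM was read as deposited and transcript values were summed by GENCODE type. Introns were taken from the reference transcript of each gene. Pairs of genes were compared by the difference of log2(TPM + 1), with a pseudocount of 1, and an exact sign-flip test over libraries. The range and sign-flip functions were tested on simulated data. Alternatives were the read-based tables, posterior means, rescaling over protein-coding genes, protein-coding transcripts only, edgeR 4.0.16 (R 4.3.3) TMM-scaled CPM from rounded expected counts, other thresholds and a pseudocount of 0.1, and leaving out each library. The text names all 10 members, the highest and lowest gene of each pathway list, the nearest pathway gene of each member, and transcripts with at least 10% of a member's TPM in either table. Nod1, Nod2, Cyld, Apaf1, Xaf1 and the smaller Birc3 and Cflar transcripts were named after their values were seen. The members and lists were chosen with earlier results of these data known. Some genes of the lists are not reported by name here.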

Additional observations from a re-analysis of the deposited data

How the results depend on the processing

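With read-based, posterior mean, protein-coding-transcript or CPM values, 25 of 28 pair differences kept their direction and 3 reversed. Over protein-coding transcripts only, Birc2 minus Xiap was 0.12 and Ripk2 minus Ripk1 was 0.85 on the log2 scale. Ripk2 minus Ripk1 was 0.089 in the read-based tables, and leaving out each library gave -0.32 to 0.29, with the reversal without replicate 2. The cause was not tested. The median member level of 34.7 TPM became 46.8 in the read-based tables, 27.9 over protein-coding transcripts only and 121.3 after rescaling over protein-coding genes, which only changes the total. Leaving out each library, 0 to 1 members exceeded a 2-fold range, and 1 to 2 were mostly outside protein-coding transcripts. With read-based values 4 members were mostly outside, namely Ripk1, Ripk2, Birc3 and Xiap. Apart from leaving out libraries, which can hardly move a mean of 3 by 1 SD, 24 of 40 recomputed levels moved by over 1 SD, 10 of them on rescaling. No paired analysis was possible because the libraries form 1 group, so there are no groups to pair; genes were compared within each library. Depth limits Ripk3 and Fadd, and with 3 libraries no pair could reach a p under 0.25.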
